A study of Homo sapiens with 6 samples.

Results

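The genes examined were 10 components of Toll-like receptor and interleukin-1 (IL-1) receptor signaling, taken by name from the 47432 genes of the expression tables. They were 4 receptors (TLR1, TLR2, TLR4, TLR6) and 6 cytoplasmic adaptors and kinases (MYD88, IRAK1, IRAK2, IRAK3, IRAK4, TRAF6). RNA was sequenced from LOX-IMVI, a human melanoma cell line. Cells had been transduced with a lentiviral pLKO.1 construct, carrying either a control hairpin (shCtrl) or a single short hairpin RNA directed at NFKBIZ (shNFKBIZ), and there were 3 libraries per group from separate experiments. NFKBIZ encodes IκBζ, a nuclear protein that binds NF-κB and modulates its target genes. No Toll or IL-1 ligand was named in the labels, and a single hairpin does not allow an effect of NFKBIZ to be told apart from an effect of that hairpin.

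Toll-like receptors recognise microbial products and IL-1 family receptors recognise cytokines, and most members of both groups carry a cytoplasmic TIR domain. After ligand binding, the TIR domain of most of these receptors recruits the adaptor MyD88. MyD88 assembles the kinases IRAK4, IRAK1 and IRAK2. The ubiquitin ligase TRAF6 passes the signal to the kinase TAK1 (encoded by MAP3K7), and from there to NF-κB and MAP kinases. NFKBIZ is itself a known target gene of this pathway in many cell types.

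The depth was similar in both groups, with 22485376 to 24624839 total exon reads in shCtrl and 22264473 to 22681220 in shNFKBIZ libraries. NFKBIZ had 1519, 1629 and 1674 exon reads in shCtrl, compared with 474, 477 and 468 in shNFKBIZ, with a log2 fold change (log2FC) of -1.78 (SE 0.0581). Of 8 melanocyte lineage markers, SOX10, MLANA and S100B were at 0 in all libraries and only MITF had a mean above 1 TPM in either group. Their summed level was 3.19 to 4.23 TPM in shCtrl and 1.79 to 2.62 TPM in shNFKBIZ libraries. MITF alone was at 3.21 ± 0.373 TPM in shCtrl and 2.00 ± 0.241 TPM in shNFKBIZ (SD). All 6 leukocyte and myeloid markers were below a mean of 1 TPM (summed 0.213 to 0.576 and 0.771 to 0.924 TPM). In a bulk sample, fewer cells of a type and less RNA per cell cannot be told apart.

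First, the levels of the 10 genes were compared in TPM (transcripts scaled to a common library total), which corrects for exon length. The length was that of all annotated exons of a gene, which can exceed that of the transcript present. For IRAK4 it was 7308 bases, against 1383 coding and 2826 3′ untranslated bases in the canonical transcript. For TRAF6 it was 8129, against 1569 and 6069. The order and ratios of the genes depend on this choice, and other lengths were not tried. In shCtrl cells, IRAK1, a kinase that is phosphorylated by IRAK4, had the highest level at 325 ± 10.0 TPM (SD, n = 3). This was 88.3% of the summed TPM of the 10 genes and 25.1 times the level of the next gene. TRAF6 (12.97 ± 0.734 TPM) and IRAK4 (11.8 ± 0.616 TPM) followed, and their ranges overlapped. Next came MYD88 (7.36 ± 0.826 TPM), IRAK2 (6.11 ± 1.04 TPM) and TLR6 (4.51 ± 0.543 TPM), with neighbours in this order overlapping. IRAK4 and MYD88 did not overlap. TLR1 was at 0.366 ± 0.290 TPM, 12.3 times below TLR6. The other 3 genes had no exon reads in shCtrl cells.

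**Figure D1:**
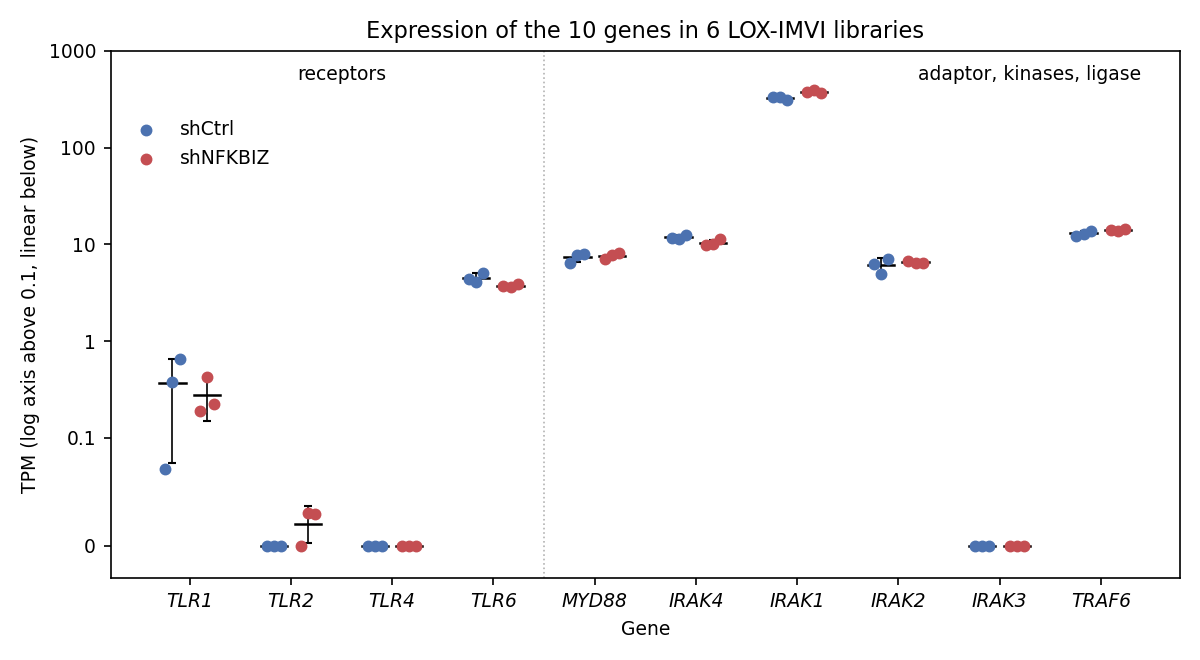
Level of each of the 10 genes in TPM (vertical axis, logarithmic above 0.1 and linear below) in the 3 shCtrl and 3 shNFKBIZ libraries. Points are libraries, horizontal lines are group means and error bars are SD. IRAK1 lies above 300 TPM in all 6 libraries, whereas TLR4 and IRAK3 lie at 0 in all of them.

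TLR4, the receptor for lipopolysaccharide, had 0 exon reads in each of the 6 libraries. A count of 0 allows up to 3 reads per library, which for TLR4 was 0.0352 to 0.0393 TPM. TLR2, which recognises bacterial lipopeptides together with TLR1 or TLR6, had 0, 0 and 0 exon reads in shCtrl, compared with 0, 1 and 1 in shNFKBIZ. IRAK3, an IRAK family member that restrains signaling, had 0 exon reads in all libraries (limit 0.0482 to 0.0538 TPM per library) and 1 and 5 intron reads in total in shCtrl and shNFKBIZ. Those 5 intron reads all came from shNFKBIZ replicate 2. Thus, TLR6 was detected without its known partner TLR2 above the limit of 3 reads. The intervals and limits given here cover counting error only.

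The promoters of TLR6 and TLR2 are shown because one gene was read in every library and the other was at or near 0. They are RefSeq sequences (GRCh38.p14) of 300 bases around the gene start, the last 50 of them after it. They run 5′ to 3′ on the strand of the gene, with each CpG dinucleotide in capitals. The TLR6 window also covers the annotated start of TLR1, with which TLR6 shares 57 exon bases. Of 1016 TLR6 exon reads, 5 joined exons, and the use of this start was not tested.
TLR6 (chr4:38856768-38857067, minus strand): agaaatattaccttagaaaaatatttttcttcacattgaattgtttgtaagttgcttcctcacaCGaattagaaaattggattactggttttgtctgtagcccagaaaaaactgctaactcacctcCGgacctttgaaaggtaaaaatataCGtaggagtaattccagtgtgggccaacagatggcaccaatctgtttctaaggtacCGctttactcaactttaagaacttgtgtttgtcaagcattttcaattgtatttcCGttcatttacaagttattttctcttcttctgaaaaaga
TLR2 (chr4:153684030-153684329, plus strand): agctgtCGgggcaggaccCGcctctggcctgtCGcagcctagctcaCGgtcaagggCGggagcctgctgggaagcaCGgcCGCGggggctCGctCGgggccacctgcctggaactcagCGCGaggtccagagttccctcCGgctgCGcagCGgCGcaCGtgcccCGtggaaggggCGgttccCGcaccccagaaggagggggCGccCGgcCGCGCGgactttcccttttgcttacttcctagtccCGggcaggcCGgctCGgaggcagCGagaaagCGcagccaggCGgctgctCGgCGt

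The TLR6 promoter held 5 CpG dinucleotides at 34.7% GC. Of 10244 promoters of tested genes, 6.96% held 5 or fewer, and the median was 26 CpG at 65.3% GC. The TLR2 promoter held 33 CpG at 72.7% GC. IRAK3, which was also at 0, had 27 CpG, TLR4 had 8, and IRAK1, the gene with the highest level, had 52. CpG content therefore did not follow the order of the levels among these genes. The κB consensus was searched on both strands of the 9 promoters found in the table. It was present in 0 of 9, against 6.52% of the promoters of tested genes, and a missing match says only that these letters are not in this window.

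To ask how the knockdown of NFKBIZ bears on these genes, exon reads were compared between shNFKBIZ and shCtrl cells. TLR6 and IRAK4 were lower in shNFKBIZ cells and IRAK1 was higher, each by less than 1.3-fold, whereas TLR1, MYD88, IRAK2 and TRAF6 did not pass the test. TLR2, TLR4 and IRAK3 had too few reads to be tested. At an adjusted P of at most 0.05, 2 of the 7 tested genes were lower and 1 was higher, compared with 32.8% of all 13843 tested genes lower and 32.5% higher (65.3% in either direction). By edgeR and by DESeq2, 0 of the 7 were past the threshold of an additional 2-fold change, which 8.96% of all genes passed in edgeR. At an unadjusted P under 0.05, edgeR gave the same 3 genes. The median size of the log2FC was 0.13 for the 7 genes and 0.30 for all genes.

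Among the receptors, TLR6 had 185, 179 and 202 exon reads in shCtrl, compared with 150, 142 and 158 in shNFKBIZ. All shNFKBIZ libraries were below all shCtrl libraries. TLR6 fell 1.27-fold (log2FC -0.35, SE 0.104, adjusted P 0.0061, edgeR quasi-likelihood test with Benjamini-Hochberg adjustment). Of all tested genes, 55.7% had a change no larger than this. TLR1, a partner of TLR2 in lipopeptide recognition, had 2, 11 and 17 exon reads in shCtrl, compared with 5, 11 and 6 in shNFKBIZ. The groups overlapped, and the log2FC was -0.46 (SE 0.562, adjusted P 0.492). The sum of 22 reads in shNFKBIZ over 30 in shCtrl, per total exon reads, gave a ratio of 0.773 (exact 95% interval 0.425 to 1.39). Without shCtrl replicate 3, the sign of the TLR1 change turned (log2FC 0.19).

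Among the adaptors and kinases, MYD88 had 170, 212 and 195 exon reads in shCtrl, compared with 175, 189 and 205 in shNFKBIZ. The groups overlapped, with a log2FC of -0.03 (SE 0.102, adjusted P 0.784). IRAK4, the kinase that MyD88 recruits first, had 527, 532 and 527 reads in shCtrl, compared with 424, 420 and 490 in shNFKBIZ. The groups did not overlap, and IRAK4 fell 1.20-fold (log2FC -0.26, SE 0.0679, adjusted P 0.00176). IRAK4 shares 4585 bases with TWF1 on the opposite strand, and strand was not used in the counting. TWF1 moved the other way (log2FC 0.10, SE 0.0438, adjusted P 0.0489).

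IRAK1 had 8750, 9089 and 7711 exon reads in shCtrl, compared with 9304, 9687 and 9218 in shNFKBIZ, which was higher in each library than in any shCtrl library. The increase was 1.09-fold (log2FC 0.13, SE 0.0370, adjusted P 0.00389). In TPM, which is scaled to the library total, the log2 ratio of the IRAK1 means was 0.21 (325 ± 10.0 and 377 ± 16.3 TPM). IRAK2, a kinase that sustains late signaling, had 135, 110 and 139 reads in shCtrl, compared with 136, 127 and 132 in shNFKBIZ, with a log2FC of 0.02 (SE 0.123, adjusted P 0.873). TRAF6 had 622, 671 and 645 reads in shCtrl, compared with 664, 649 and 704 in shNFKBIZ. Its log2FC was 0.04 (SE 0.0569, adjusted P 0.518). The TRAF6 groups overlapped in TMM-scaled CPM (reads per scaled library total) but not in TPM (12.3 to 13.8 against 13.9 to 14.6 TPM).

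Receptors and adaptors were then set side by side. The median log2FC was -0.40 for the 2 receptors that could be tested and 0.02 for the 5 adaptors and kinases, against 0.0043 for all tested genes. The receptor median moved with TLR1, to -0.66 without shCtrl replicate 1, -0.04 without shCtrl replicate 3 and -0.05 with total gene reads, and the median of adaptors and kinases was -0.05 with total gene reads. With so few genes in each class, these medians only describe the genes measured. In CPM, the groups did not overlap for 3 of the 7 genes (TLR6, IRAK4 and IRAK1), compared with 68.7% of all tested genes.

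**Figure D2:**
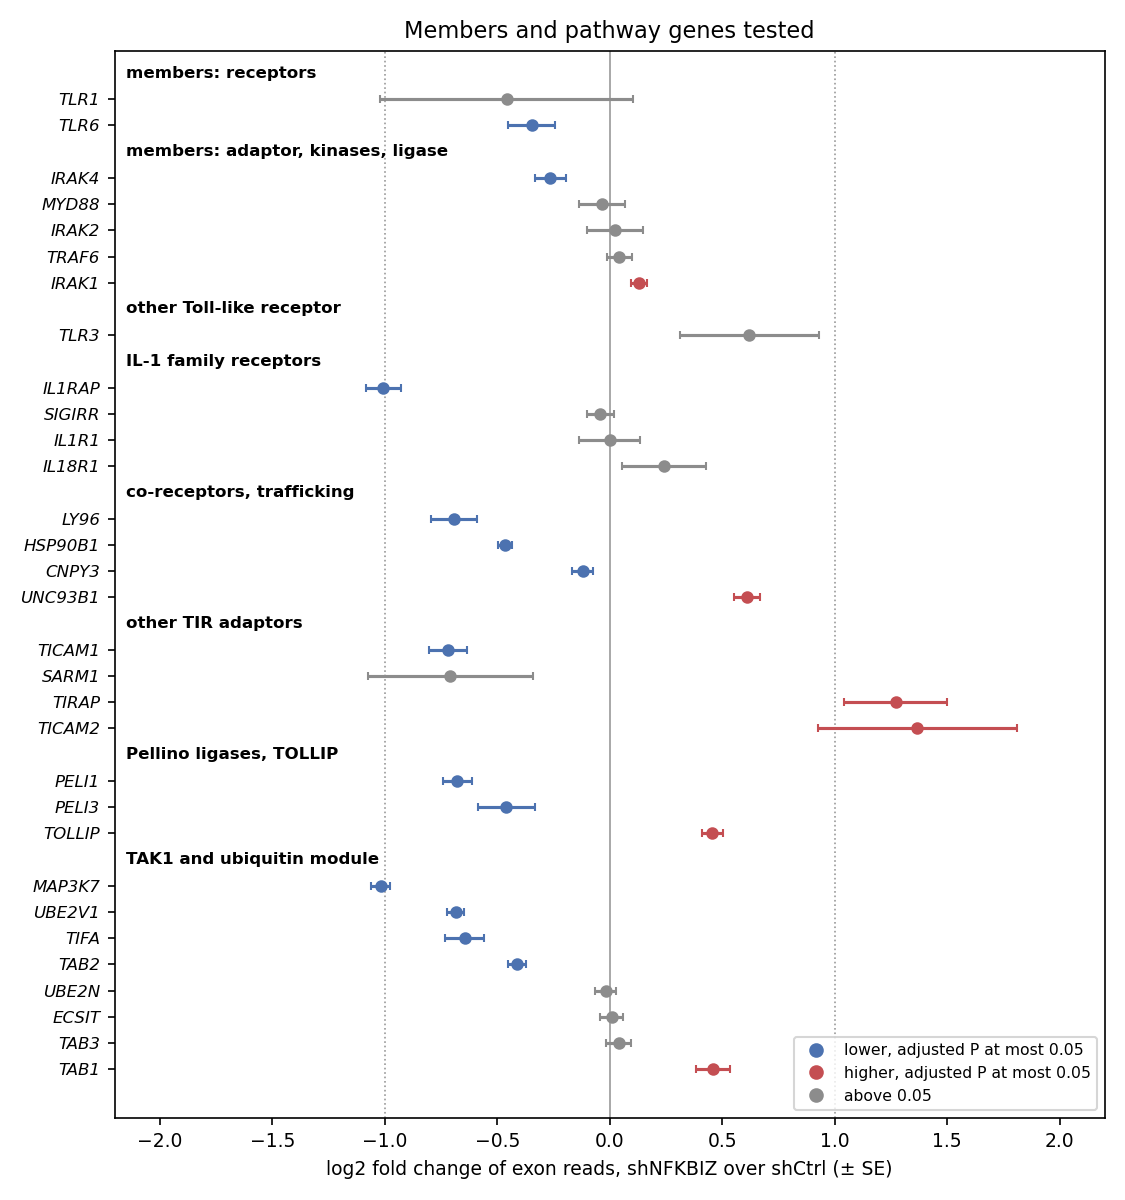
Log2 fold change of exon reads, shNFKBIZ over shCtrl (horizontal axis, bars are SE), for the 7 tested genes and the 24 tested genes of the wider pathway, grouped by role. Dotted lines mark 2-fold. The 7 genes lie between -0.46 and 0.13, whereas the pathway genes reach from -1.02 (MAP3K7) to 1.37 (TICAM2).

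Next, the reads behind TLR1 and TLR6 were examined, since these receptor genes lie on each other. TLR1 (chr4:38790677-38856817, minus strand, hg38) contains the whole of TLR6 (chr4:38822897-38856817, minus strand). Their coding sequences were 77.3% identical, compared with 54.1% to 56.2% for the other pairs among the 4 receptors. The longest shared run had 218 bases. The last 25 shared bases and the 5 that follow are shown in coding sequence, because a fragment within such a run cannot be assigned to 1 gene. Capitals mark the bases in the shared run.
TLR1, from coding base 1572: TCCATTCCAATGTACCTGTGAGCTAggaga
TLR6, from coding base 1587: TCCATTCCAATGTACCTGTGAGCTAagaga

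Unique reads made up 88.5% of the exon reads of TLR1 and 97.1% of those of TLR6. The other 5 tested genes had 100% unique exon reads. Few TLR6 fragments joined exons. Exon-exon reads were 5 of 1016 TLR6 exon reads (0.492%), and of 10725 protein-coding genes with at least 300 reads, 2.19% had a share this low. The median share was 24.3%. The coding sequence of TLR6 lies in a single exon that also holds a long 3′ untranslated part. MYD88 (9.16%) and TRAF6 (9.46%) were also below the median, and IRAK1 (25.6%), IRAK4 (21.95%) and IRAK2 (21.1%) were near it. TLR1 had more intron than exon reads, with 36, 34 and 29 intron reads in shCtrl, compared with 43, 44 and 39 in shNFKBIZ. TLR6 had 10, 14 and 24 intron reads in shCtrl, compared with 30, 21 and 17 in shNFKBIZ, of which 0 were unique.

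**Figure D3:**
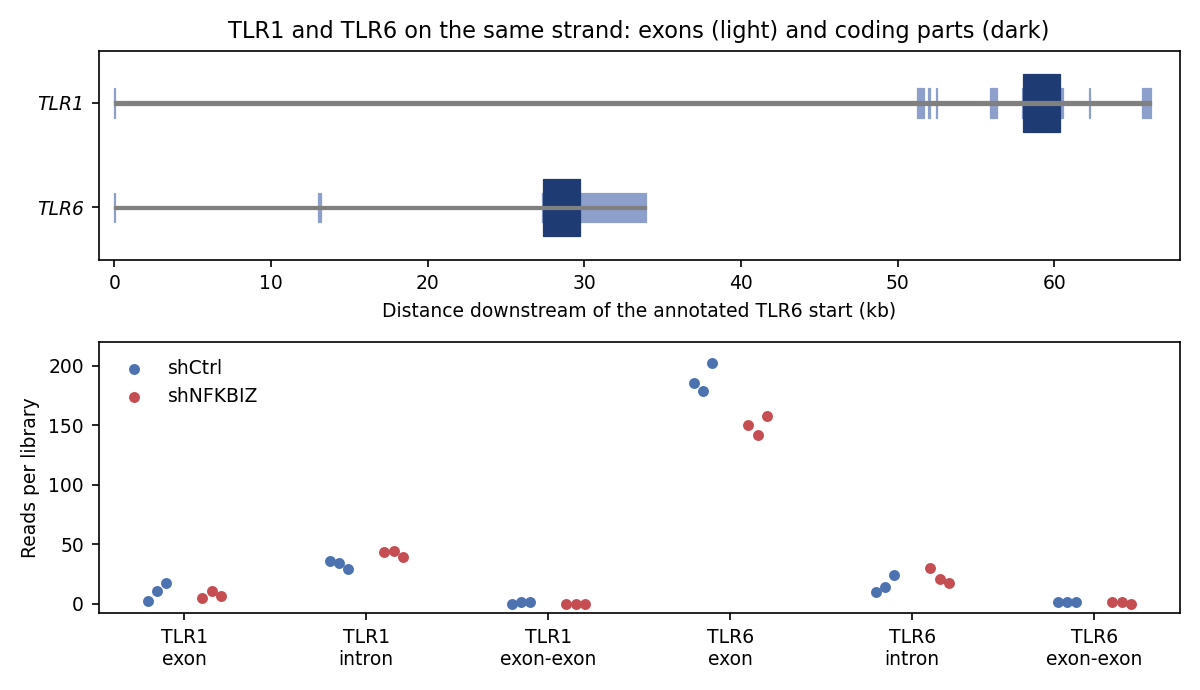
Top, exons (light) and coding parts (dark) of TLR1 and TLR6 by distance in kb downstream of the annotated TLR6 start. Bottom, exon, intron and exon-exon reads of both genes in each library. TLR6 exon reads (142 to 202) stand above all other classes, and TLR6 exon-exon reads were at most 1 per library.

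Intron reads come mostly from unspliced RNA and are not part of the exon counts. On intron reads, IRAK1 was higher and IRAK2 lower in shNFKBIZ cells, and TLR1, TLR6, IRAK4 and TRAF6 did not pass the test. These were 2 of 6 tested genes, compared with 38.8% of 12119 tested genes. IRAK1 had 151, 130 and 111 intron reads in shCtrl, compared with 184, 219 and 183 in shNFKBIZ, with every shNFKBIZ library above every shCtrl library. The log2FC was 0.49 (SE 0.108, adjusted P 0.000407). IRAK2 had 35, 43 and 36 intron reads in shCtrl, compared with 19, 35 and 21 in shNFKBIZ, and the groups touched at 35. The log2FC was -0.69 (SE 0.227, adjusted P 0.0143). The IRAK2 call was lost without shCtrl replicate 2 (-0.63, adjusted P 0.0651), shNFKBIZ replicate 1 (-0.55, adjusted P 0.0870) or shNFKBIZ replicate 3 (-0.59, adjusted P 0.0687).

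IRAK4 had 89, 82 and 104 intron reads in shCtrl, compared with 76, 95 and 73 in shNFKBIZ. Its intron change was -0.26 (SE 0.140, adjusted P 0.135), the same size as its exon change of -0.26. TRAF6 had 72, 64 and 67 intron reads in shCtrl, compared with 66, 59 and 66 in shNFKBIZ (log2FC -0.18, SE 0.152, adjusted P 0.374). The groups overlapped for both genes. For TLR1 and TLR6 the intron changes were 0.26 (SE 0.196) and 0.41 (SE 0.310), with adjusted P values of 0.315 and 0.310. The TLR6 value rested on few reads per library, of which 0 were unique. It was 0.16 without shCtrl replicate 1, 0.13 without shNFKBIZ replicate 1 and 0.83 without shCtrl replicate 3. MYD88 had 1 intron read in all.

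Whether exon and intron reads of a gene changed differently was tested as an interaction. This difference was called for IRAK1 and IRAK2, 2 of 6 genes, compared with 29.1% of 11025 genes. For IRAK1 the exon change was below the intron change by 0.30 on the log2 scale (-0.30, SE 0.103, adjusted P 0.0175). For IRAK2 it was above it by 0.78 (SE 0.255, adjusted P 0.0140). The IRAK1 call was lost without shCtrl replicate 2 (-0.25, adjusted P 0.115), shCtrl replicate 3 (-0.27, adjusted P 0.0761) or shNFKBIZ replicate 2 (-0.27, adjusted P 0.0747). The IRAK2 call was lost without shCtrl replicate 2 (0.59, adjusted P 0.138), shNFKBIZ replicate 1 (0.61, adjusted P 0.112) or shNFKBIZ replicate 3 (0.68, adjusted P 0.0683). The intron reads of TLR6 held 0 unique reads and cannot be assigned to TLR6 alone. The difference for TLR6 was -0.71 (SE 0.301, adjusted P 0.0664). It passed the test without shCtrl replicate 3 (-1.06, adjusted P 0.0194) or shNFKBIZ replicate 3 (-0.91, adjusted P 0.0299). For TLR1 it was -0.65 (SE 0.501, adjusted P 0.359), for TRAF6 0.27 (SE 0.157, adjusted P 0.192) and for IRAK4 0.05 (SE 0.148, adjusted P 0.831).

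**Figure D4:**
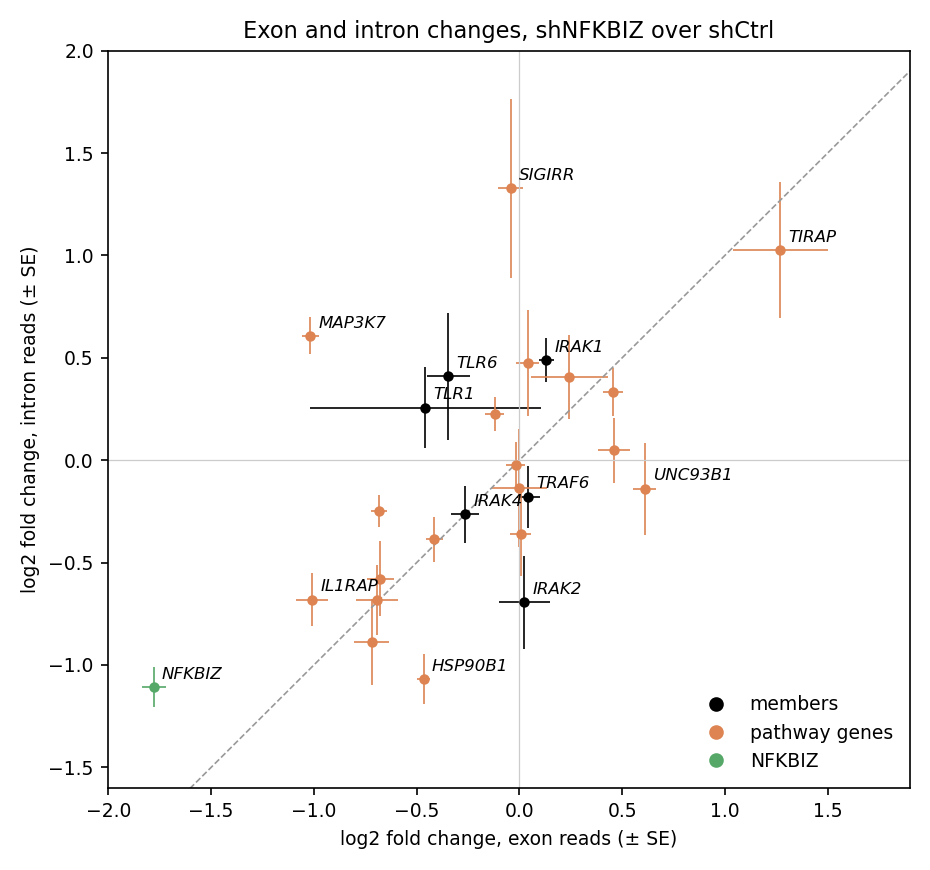
Log2 fold change of exon reads (horizontal axis) against intron reads (vertical axis), shNFKBIZ over shCtrl, with SE as bars. Black points are the 6 genes tested on both, orange points the pathway genes, and the green point NFKBIZ. The dashed line marks equal change, and IRAK2 and IRAK1 lie on opposite sides of it.

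Finally, 37 other genes of the pathway were counted by role. Of these, 24 could be tested, and 11 were lower, 5 were higher and 8 did not pass the test in shNFKBIZ cells. The share called, 66.7%, was near the 65.3% of all tested genes (32.8% lower, 32.5% higher). Past the threshold were 4 of the 24 genes, compared with 8.96% of all tested genes. These were IL1RAP and MAP3K7, which were lower, and TIRAP and TICAM2, which were higher. Among the other Toll-like receptors, TLR5, TLR7, TLR8, TLR9 and TLR10 had 0 exon reads in all libraries. TLR3, an endosomal receptor for double-stranded RNA, had 10, 12 and 19 exon reads in shCtrl, compared with 20, 18 and 26 in shNFKBIZ, and the groups overlapped. Its log2FC was 0.62 (SE 0.310, adjusted P 0.0848), and it passed the test without shCtrl replicate 3 (0.96, adjusted P 0.0253).

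Of 8 IL-1 family receptors, 4 could be tested and 1 was lower (25% called, 65.3% of all tested genes). This was IL1RAP, the accessory chain shared by several IL-1 family receptors, with 559, 527 and 573 exon reads in shCtrl, compared with 269, 304 and 261 in shNFKBIZ. The groups were far apart, and IL1RAP fell 2.01-fold (log2FC -1.01, SE 0.0777, adjusted P 1.9e-10). The change lay close to the 2-fold limit, and IL1RAP stayed past the threshold under 11 of 16 alternatives. Over all 16 the log2FC was -1.07 to -0.92, and it was below 2-fold in, among others, the fits without shCtrl replicate 3 (-0.95), shNFKBIZ replicate 1 (-0.99) or shNFKBIZ replicate 3 (-0.96). IL1R1, the ligand-binding receptor for IL-1, had 98, 84 and 101 reads in shCtrl, compared with 91, 95 and 100 in shNFKBIZ (log2FC -0.00097, SE 0.135, adjusted P 0.995). Thus, the accessory chain was lower, whereas the groups overlapped for the ligand-binding chain.

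Of 7 co-receptors and trafficking factors, 4 could be tested, and LY96, HSP90B1 and CNPY3 were lower and UNC93B1 was higher. All 4 were thus called, compared with 65.3% of all tested genes. LY96 encodes MD-2, the co-receptor of TLR4 (log2FC -0.69, SE 0.101, adjusted P 3.4e-06). UNC93B1, which escorts endosomal Toll-like receptors, had 441, 488 and 443 reads in shCtrl, compared with 704, 715 and 694 in shNFKBIZ, without overlap (log2FC 0.61, SE 0.0579, adjusted P 5.8e-09). All 4 other TIR adaptors were tested, and TICAM1 was lower, TIRAP and TICAM2 were higher and SARM1 did not pass the test (log2FC -0.71, SE 0.367, adjusted P 0.0957). This was 75% called, against 65.3% of all tested genes. TIRAP, the bridge between MyD88 and TLR2 or TLR4, had 22, 22 and 15 reads in shCtrl, compared with 55, 42 and 47 in shNFKBIZ. It rose 2.41-fold (log2FC 1.27, SE 0.230, adjusted P 5.2e-05), from 0.453 ± 0.0726 to 1.16 ± 0.153 TPM (SD, n = 3). The antisense gene TIRAP-AS1, which shares 4550 bases with it, did not pass the test (log2FC 0.21, SE 0.320, adjusted P 0.584).

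TICAM1 encodes TRIF, the adaptor of TLR3, and fell 1.65-fold (log2FC -0.72, SE 0.0844, adjusted P 1.5e-07). TICAM2, the bridge between TRIF and TLR4, had 9, 27 and 15 reads in shCtrl, compared with 64, 45 and 24 in shNFKBIZ, which overlapped. Its log2FC was 1.37 (SE 0.441, adjusted P 0.0223), and the call was lost without shCtrl replicate 3 (adjusted P 0.0899) or shNFKBIZ replicate 2 (adjusted P 0.0675). Only 13.04% of its reads were unique. It shares 23838 bases with the read-through gene TMED7-TICAM2, which was lower (log2FC -1.10, SE 0.168), and the reads that are not unique cannot be assigned to either gene. Unique TICAM2 reads were 1, 3 and 2 in shCtrl and 8, 7 and 3 in shNFKBIZ, and the filter on low counts removed them. TICAM1 was also the only 1 of 31 pathway promoters in the table with the κB consensus (3.23%, against 6.52% of the promoters of tested genes). The match, in capitals, started 120 bases before the gene start (GRCh38.p14, chr19:4831803-4831852, minus strand).
TICAM1: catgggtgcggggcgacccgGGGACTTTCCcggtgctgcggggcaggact

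Downstream of the receptors, PELI1 (log2FC -0.68) and PELI3 (-0.46), ubiquitin ligases that act on IRAK proteins, were lower and the inhibitor TOLLIP was higher (0.46). All 3 tested genes of this group were thus called, compared with 65.3% of all tested genes. PELI2 had 5 exon reads in all and was not tested. Of 8 genes of the TAK1 and ubiquitin module, 4 were lower, 1 was higher and 3 did not pass the test (62.5% called, 65.3% of all tested genes). MAP3K7, the kinase TAK1, had 2367, 2332 and 2266 exon reads in shCtrl, compared with 1184, 1148 and 1143 in shNFKBIZ. It fell 2.02-fold (log2FC -1.02, SE 0.0426, adjusted P 5.5e-15), and the groups were far apart. It was past the threshold under 14 of 16 alternatives, and below 2-fold with library size alone (-0.93) and with total gene reads (-0.78). Its intron reads rose from 191, 198 and 248 to 328, 349 and 357 (log2FC 0.61, SE 0.0907, adjusted P 1.2e-06). The difference between exon and intron change was -1.57 (SE 0.0915, adjusted P 6.8e-27). Of 19 pathway genes tested for this difference, 4 were lower and 3 higher (36.8% called, 29.1% of all tested genes). Past 2-fold were MAP3K7 and SIGIRR (-1.33), the latter with 14 and 38 summed intron reads in shCtrl and shNFKBIZ. The difference for UNC93B1 was 0.80 (adjusted P 0.00394). IL1RAP was also lower on intron reads (-0.68, adjusted P 6.7e-05), and its difference was not called (-0.27, adjusted P 0.177). On exon reads, TAB2 (-0.41) and TIFA (-0.64) were lower and TAB1 (0.46) was higher. UBE2V1 was lower (-0.68), but only 1.66% of its reads were unique.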

How the data were processed

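The authors mapped the reads to hg38 (Ensembl 109) in CLC Genomics Workbench v24.0 under default settings. The deposited tables hold raw fragment counts (exon, intron, junction; total and unique). Total reads include fragments with up to 10 hits. Strand was not used. TPM was computed anew from exon reads and exon lengths. Of the gene identifiers, 99.97% were in GENCODE release 44. The sequencing provider is left out, since labels and methods differ on it.

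Total exon reads of all genes were filtered (filterByExpr, 13843 genes), scaled with TMM factors and compared with the two-sided quasi-likelihood test of edgeR 4.0.16 (robust glmQLFit) in R 4.3.3, without a replicate block and with Benjamini-Hochberg adjustment. SE is the log2 fold change divided by the square root of F. A gene counted as called with an adjusted P not above 0.05, and was past the threshold with an additional 2-fold change. A further limit of the study on a difference has no unit and was not applied. For LOX-IMVI, a figure legend of the study names a slightly higher P limit than its methods. Its gene counts are therefore not comparable with those here. Intron reads were fitted alike, and their difference from exon reads as an interaction with library blocks. On simulated data, 100% (13696 genes), 100% (11932 genes) and 97% (10856 genes) of 200 genes changed 3-fold were recovered for exon reads, intron reads and their difference. Among unchanged genes, 9, 8 and 13 were called. The changed genes had a mean of at least 50 reads, and the spread between libraries was set in advance. Smaller changes, such as those of the members, and genes with fewer reads were not simulated.

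Members and lists were chosen with earlier results of these data known. Named genes were the members, NFKBIZ, pathway genes past the threshold, and IL1R1, IL1RAP, TLR3, TIRAP and UNC93B1. Other pathway genes named by role, and genes that overlap a named gene, were chosen after their values were seen. The genes of most similar pattern were found for TLR1 and IRAK4, the tested receptor and kinase with the largest log2 fold change in size. The TLR1 change was not called. Likeness was the Euclidean distance of centred log2 CPM, among genes with a mean of at least 50 reads. The alternatives changed the scaling (RLE factors, library size alone, removal of the 10 most abundant genes), the filter (none, or a minimum of 10 counts per library), the reads (unique, total gene), the test (likelihood ratio, DESeq2 1.42.0) or the threshold, added a replicate block, or left out each library. Same-numbered libraries deviated together with correlations of 0.0207, 0.0561 and 0.0288, compared with -0.0376 to 0.0109 for libraries of different numbers. The same-numbered values were higher, but all were small, and the numbers were not used as pairs. No replicate was a copy of another (chi-square over its degrees of freedom 1.71 to 4.45). Promoters were taken from RefSeq and coding sequences from the GENCODE canonical transcripts.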

Additional observations from a re-analysis of the deposited data

How the results depend on the processing

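TLR6, IRAK4 and IRAK1 kept their direction and stayed called on exon reads under 16 of 16 alternatives. Scaling by library size alone moved the median log2 fold change of all genes to 0.09. Under it, 2 members were higher, since TRAF6 was also called (0.13, adjusted P 0.0479), 2 pathway genes were past the threshold, and 668 genes were past the threshold higher and 584 lower, compared with 532 and 709. With at least 10 counts in every library these were 338 and 553. With the adjusted P alone as threshold, 3 members passed. With total gene reads, 1 pathway gene was past the threshold and TICAM2 was not called (adjusted P 0.0987). The log2 ratio of the IRAK1 means was 0.21 in TPM and 0.13 in TMM-scaled CPM. Leaving out 1 library gave 0 to 1 members lower on intron reads, 0 to 2 lower and 0 to 1 higher for the difference of exon and intron reads, and 2 to 4 pathway genes past the threshold, with 2 without shCtrl replicate 3. Where a cause is not named, the cause was not tested.

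Signs turned only for values that were not called. TLR1 was 0.17 with total gene reads, and -0.95 to 0.19 as single libraries were left out, positive only without shCtrl replicate 3. MYD88 was 0.055 with library size alone and -0.12 to 0.0145 as single libraries were left out. IRAK2 was -0.11 with total gene reads and -0.10 to 0.12 as single libraries were left out. IL1R1 was 0.088 with library size alone, 0.0020 with at least 10 counts, and -0.10 to 0.080 as single libraries were left out. For the exon and intron difference, leaving out single libraries gave -1.21 to 0.042 for TLR1 and -0.084 to 0.19 for IRAK4.

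With the replicate number as a block, 2 members were lower and 1 higher on exon reads, 1 was lower and 1 higher on intron reads, and 4 pathway genes were past the threshold, as without it. The block turned the sign of IL1R1 (0.0013) and changed no other direction. The block was not run for the difference of exon and intron reads, whose fit has a term for each library. Reads were few, at most 64 per library, for TLR1, TLR2, TLR3, TIRAP, TICAM2 and SARM1 on exon reads. The same held for TLR1, TLR6 and IRAK2 on intron reads. The part of depth in the calls of these genes was not tested.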

Other observations

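Over the 6 libraries, the genes whose centred log2 CPM came closest to that of IRAK4 were ANKRD26 (Euclidean distance 0.0505), DNAJC24 (0.0675) and NUDT4 (0.0739), among 11106 candidates. For TLR1 the closest were 5_8S_rRNA_5 (1.23), ST6GALNAC6_1 (1.31) and GUSBP2 (1.32), at distances far above those of IRAK4. These are values over 6 libraries and no more.

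The 7-mer GGAACTC was searched in the sense strand of canonical transcripts, in coding and 3′ untranslated sequence. It had been picked on these same data, so its counts are a description, and a link between site and change was not tested. It was in 1 of 7 tested members, 4 of 24 tested pathway genes and 19.1% of 11923 tested genes. For the 3′ untranslated part alone, these were 1 of 7, 3 of 24 and 8.58%. NFKBIZ itself held 2 coding sites and 0 in the 3′ untranslated part. The member was TRAF6, which was not called. The pathway genes were MAP3K7 and IL1RAP, both lower on exon reads, with a site in the 3′ untranslated part, SARM1 (log2 fold change -0.71, not called), with sites in both parts, and TLR3 (0.62, not called), with coding sites. The 3′ untranslated sites of MAP3K7, IL1RAP and TRAF6 are shown as examples. They are given in RNA sense as DNA letters, with the 7-mer in capitals.
MAP3K7: ttgaacaaaatGGAACTCattttttttta
IL1RAP: taaaaaccactGGAACTCttgtccagttt
TRAF6: cagtctcgtctGGAACTCctgacctcaga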
